A study of Mus musculus with 8 samples.

Results

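The glucocorticoid-induced genes described here are 10 named genes of the 31053 in the deposited matrices: Tsc22d3, Zbtb16, Ddit4, Fkbp5, Klf9, Klf15, Cebpd, Sgk1, Errfi1 and, as the receptor itself, Nr3c1. They were measured in fibro/adipogenic progenitors (FAPs), the PDGFRα-positive connective tissue cells of skeletal muscle. The cells were sorted from hindlimb muscle of 8-month-old female mice. One group was wild type, strain C57BL/6, and the other was dysferlin knockout, of a strain written BLA/J in the sample labels and B6A/J in the protocol. Dysferlin is a membrane repair protein of muscle fibres whose loss causes a muscular dystrophy. Each group has 4 labelled samples that were deposited as 1 pooled matrix of unique molecular identifier (UMI) counts from 10x Genomics 3′ libraries. No file maps cells to samples, so each group is 1 library, without replicates. Every difference below is between those libraries. Genotype, strain, time of collection and library preparation cannot be told apart, and no p-value was computed.

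Cells were kept where a barcode had at least 500 genes, at most 10% mitochondrial UMIs and at least 1 UMI of Pdgfra, the gene of the sorted surface marker. This left 1533 of 2073 wild type and 1435 of 1724 knockout barcodes, with medians of 9177 and 12717 UMIs per cell and 14420247 and 19170199 UMIs in all. Every cell of both libraries had at least 3 of 10 FAP markers, which include the required Pdgfra and very abundant genes such as Gsn. This count therefore says little about cell identity. At least 3 of 8 macrophage markers were seen in 0 wild type and 11 knockout cells, and at least 3 of 8 endothelial markers in 8 and 2 cells. The libraries shared 13 barcodes, of which 2 wild type and 4 knockout ones were among the cells used, and without them 8 and 7 members were still at least 1.5-fold and 2-fold lower. Cells with exactly 1 Pdgfra UMI had 4669 wild type and 2179 knockout counts per 1000000 UMIs (CPM) of the 9 genes other than Nr3c1. Cells with 0 Pdgfra UMIs, just outside the rule, had 4158 and 1687 CPM.

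Glucocorticoids are steroid hormones of the adrenal cortex that rise and fall with the time of day and with stress. They cross the cell membrane and bind the glucocorticoid receptor, encoded by Nr3c1, which then leaves its chaperone complex, enters the nucleus and binds DNA at glucocorticoid response elements. In mesenchymal cells the hormone is anti-inflammatory and also supports the onset of adipogenesis, in which Cebpd, Klf15 and Zbtb16 have been implicated. Most of the 10 genes also respond to other signals: Cebpd, Sgk1 and Errfi1 to serum and growth factors, Ddit4 to hypoxia and energy stress, and Klf9 to thyroid hormone. The members were chosen by name with their measured levels in these same libraries in view, so the ratios of their knockout to wild type levels are descriptions.

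Sequences before the transcription start are shown for 4 members that differ both in motif content and in their knockout to wild type ratio. RefSeq (GRCm38.p6, which is mm10) gave 15 start sites for 7 of the 10 genes. The 250 bases before each start were searched on both strands for the glucocorticoid response element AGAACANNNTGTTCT, its half-site AGAACA, the cAMP response element TGACGTCA and the E-box CACGTG, a motif of clock and other basic helix-loop-helix factors. The full element is palindromic and holds 2 half-sites. Of all 32851 such windows 0.00913%, or 3, had the full element, 16.1% a half-site, 1.55% a cAMP response element and 6.02% an E-box. One of those 3 windows belongs to Sgk1, a member whose level was nearly the same in both libraries. Sgk1 has 6 of the 15 windows, of which 1 had the full element, 2 others a half-site and 3 no motif. Tsc22d3, which was 3.87-fold lower in the knockout, had only a half-site, at the most distal of its 3 starts. Fkbp5 had an E-box. Errfi1 had a cAMP response element before 1 start and none of these motifs before its other start. For each of these 4 genes 1 window is shown 5′ to 3′, ending at the base before the start, with matches in capitals. In the Sgk1 window the first capitals are an E-box overlapping a half-site, and the next 2 are the arms of the full element, which begins 189 bases before the start.
Sgk1, chr10:21993640-21993889, plus strand: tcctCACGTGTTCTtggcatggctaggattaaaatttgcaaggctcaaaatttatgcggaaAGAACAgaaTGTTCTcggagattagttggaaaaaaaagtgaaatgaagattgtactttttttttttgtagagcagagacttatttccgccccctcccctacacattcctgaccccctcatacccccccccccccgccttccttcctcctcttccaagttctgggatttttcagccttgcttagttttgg
Tsc22d3, chrX:140600523-140600772, minus strand: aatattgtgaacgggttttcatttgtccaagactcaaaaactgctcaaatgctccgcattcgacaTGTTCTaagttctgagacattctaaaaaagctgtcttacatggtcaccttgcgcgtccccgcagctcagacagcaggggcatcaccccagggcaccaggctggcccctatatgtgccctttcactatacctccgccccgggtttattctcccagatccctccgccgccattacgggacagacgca
Fkbp5, chr17:28486150-28486399, minus strand: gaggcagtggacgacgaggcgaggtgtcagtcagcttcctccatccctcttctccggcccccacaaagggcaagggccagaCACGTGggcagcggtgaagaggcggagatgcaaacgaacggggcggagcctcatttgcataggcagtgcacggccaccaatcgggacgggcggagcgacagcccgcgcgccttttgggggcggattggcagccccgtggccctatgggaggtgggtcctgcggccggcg
Errfi1, chr4:150854820-150855069, plus strand: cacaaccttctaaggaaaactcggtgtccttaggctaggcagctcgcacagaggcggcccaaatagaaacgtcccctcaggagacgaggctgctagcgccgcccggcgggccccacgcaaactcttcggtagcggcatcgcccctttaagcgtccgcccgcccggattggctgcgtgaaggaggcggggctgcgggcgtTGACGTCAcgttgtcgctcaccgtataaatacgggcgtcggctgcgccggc
Klf15 had 2 E-boxes, and the windows of Ddit4 and Klf9 had none of the 4 motifs. A match is a string of letters and not a shown binding site, and these windows leave out more distant enhancers.

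Most members had lower levels in the knockout library, while those of Sgk1 and of the receptor gene were close. At least 1.5-fold lower were 8 of 10 members, beside 3.59% of the 5933 genes with a mean of at least 20 CPM. At least 2-fold lower were 7 of 10, beside 1.01% of those genes. None was 1.5-fold or 2-fold higher, where 5.07% and 1.77% of all genes were. The median log2 ratio of knockout over wild type was -1.29 over the 10 members and 0.05 over all genes. The mean of Klf15, 18.9 CPM, was under the limit that the all-gene figures use, and the other 9 members passed it.

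**Figure D1:**
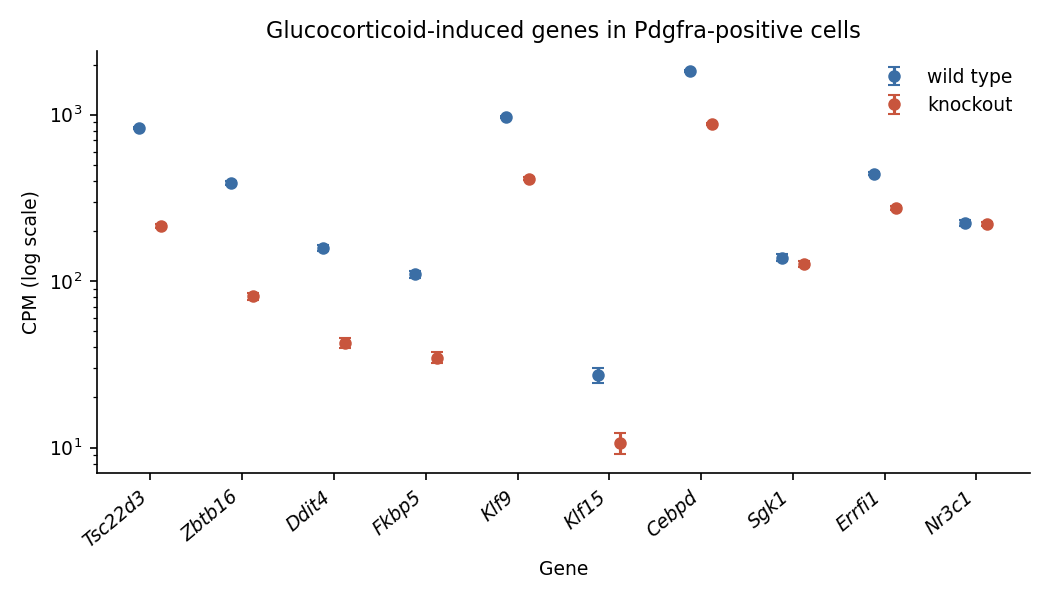
Level of each gene in CPM on a log axis in wild type (blue) and knockout (red) Pdgfra-positive cells, with exact Poisson 95% intervals that cover counting error only. The intervals lie apart for every gene but Nr3c1 and Sgk1, and the pair of points is widest for Zbtb16, at 387 and 80.9 CPM.

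The receptor and its co-chaperone came out differently. Nr3c1 (ENSMUSG00000024431, chromosome 18) had 3221 wild type and 4221 knockout UMIs, or 223 and 220 CPM. Its log2 ratio was -0.02, with an exact conditional 95% interval of -0.09 to 0.05. Fkbp5 (ENSMUSG00000024222, chromosome 17, 28399094 to 28517527, minus strand) encodes the immunophilin FKBP51. It binds the receptor-HSP90 complex, lowers its affinity for hormone and is induced by the receptor in a feedback loop. Fkbp5 had 1584 wild type and 663 knockout UMIs, or 110 and 34.6 CPM, a log2 ratio of -1.67 (-1.80 to -1.54). The interval for the receptor transcript included equal levels, while the transcript of its feedback inhibitor was 3.18-fold lower in the knockout library.

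Of the 5 transcription regulators Zbtb16 and Tsc22d3 were furthest apart. Tsc22d3 (ENSMUSG00000031431, chromosome X, 140539528 to 140600659, minus strand) encodes the glucocorticoid-induced leucine zipper, which binds NF-kB and AP-1 subunits. It had 11967 wild type and 4112 knockout UMIs, or 830 and 215 CPM, a log2 ratio of -1.95 (-2.00 to -1.90). Zbtb16 (ENSMUSG00000066687, chromosome 9, 48654297 to 48836222, minus strand) encodes the zinc finger repressor PLZF. It had 387 and 80.9 CPM, and its log2 ratio of -2.26 (-2.34 to -2.18) was the 9th lowest of the 5933 genes. Klf9 (ENSMUSG00000033863, chromosome 19, 23141226 to 23168134), a Krüppel-like factor, had 965 and 413 CPM (log2 ratio -1.22, -1.26 to -1.18).

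Klf15 (ENSMUSG00000030087, chromosome 6, 90462576 to 90475238), which drives amino acid catabolism in muscle, was the scarcest member. It had 391 and 203 UMIs, or 27.1 and 10.6 CPM, and a wide interval around its log2 ratio of -1.36 (-1.61 to -1.11). Cebpd (ENSMUSG00000071637, chromosome 16, 15887286 to 15891031), an early factor of adipogenesis, had 1834 and 882 CPM (-1.06, -1.08 to -1.03). It overlaps Spidr on the other strand, and the sources used here do not say whether the counting used strand. All 5 regulators were at least 2-fold lower, Cebpd the least, at 2.08-fold.

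The 3 signalling members differed among themselves. Ddit4 (ENSMUSG00000020108, chromosome 10, 59949669 to 59951834, minus strand), also called REDD1, restrains mTORC1. It had 2286 wild type and 817 knockout UMIs, or 159 and 42.6 CPM, a log2 ratio of -1.90 (-2.01 to -1.78). Errfi1 (ENSMUSG00000028967, chromosome 4, 150853919 to 150868892), a feedback inhibitor of the EGF receptor, had 442 and 275 CPM (-0.68, -0.74 to -0.63). The kinase gene Sgk1 (ENSMUSG00000019970, chromosome 10, 21882184 to 21999903) acts in sodium transport and cell survival. It had 138 and 127 CPM, with a log2 ratio of -0.12 (-0.21 to -0.03). Ddit4 was thus 3.72-fold lower, Errfi1 1.61-fold lower, and Sgk1 within 1.09-fold.

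Genes outside the list that are also known to be glucocorticoid-induced were lower by 1.5-fold in 9 of 17 cases. Of 28 such genes 17 had a mean of at least 20 CPM. Of these 17, 9 were at least 1.5-fold lower, 1 was higher and 7 lay between, with a median log2 ratio of -0.60. Of all 5933 genes 3.59% were that much lower and 5.07% higher. The sulfotransferase Sult1a1 had 63.0 and 19.2 CPM (-1.72, -1.89 to -1.54). Glul, the glutamine synthetase gene, had 235 and 86.6 CPM (-1.44, -1.52 to -1.35). The NF-kB inhibitor Nfkbia was 2.26-fold lower, the forkhead factors Foxo1 and Foxo3 were 2.20-fold and 1.86-fold lower, and the mRNA decay factor Zfp36 was 1.80-fold lower.

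The phosphatase gene Dusp1 was also past 1.5-fold, with 794 and 487 CPM (-0.71), as were Gpx3 (1.63-fold lower) and Irs2 (1.51-fold lower). The remaining genes of that list with a mean of at least 20 CPM were not lower by 1.5-fold. The clock gene Per1, a receptor target with its own response element, had 54.0 and 46.1 CPM (-0.23, -0.37 to -0.09). The metal-binding Mt2 was the 1 higher gene, with 753 and 1206 CPM (0.68). Gpx3, Irs2 and Mt2 were named after their values were seen. Dusp1 and Zfp36 are also immediate early genes, and Per1 is also a clock gene.

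Transcripts of the steroid supply and the receptor complex were mostly within 1.5-fold, as were most genes. Of 18 such genes 16 were above the limit, with a median log2 ratio of -0.03. Of them 15 were within 1.5-fold, as were 5419 of all 5933 genes. The exception was the coactivator Ncoa3, with 49.3 and 31.4 CPM (-0.65, -0.81 to -0.49). Hsd11b1, the enzyme that regenerates active corticosterone inside the cell, had 147 and 102 CPM (-0.53, -0.62 to -0.44). Hsd11b2, which inactivates the hormone, was scarce at 5.41 and 12.8 CPM, with a log2 ratio of 1.25 (0.87 to 1.63). The mineralocorticoid receptor gene Nr3c2, whose product binds the same hormone, had 4.58 and 4.33 CPM. The transcript of the activating enzyme was thus 1.45-fold lower in the knockout library, which is within 1.5-fold like most of the list. That of the inactivating enzyme was 2.37-fold higher, but its mean of 9.12 CPM was under the limit. Whether these transcripts bear on the hormone level in the cells or on the members' ratios was not tested.

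Genes known to be repressed by glucocorticoids were mostly higher. Of 14 such genes 8 were above the limit, of which 5 were at least 1.5-fold higher and 1 lower, with a median log2 ratio of 1.75. Of all 5933 genes 5.07% were that much higher and 3.59% lower. The chemokine genes Cxcl10, Ccl2 and Ccl7 were 9.08-fold, 6.75-fold and 4.25-fold higher. The protease gene Mmp3 was 6.01-fold and the adhesion molecule gene Vcam1 2.67-fold higher. The chemokine gene Cxcl1 was 1.80-fold lower. The interferon- and NF-kB-driven chemokines among them also respond to other signals, whose part in this was not tested. The macrophage list summed to 6.03 wild type and 65.7 knockout CPM, with Lyz2 present in 17 and 61 cells. Without the 39 wild type and 376 knockout cells that had a Cxcl9 or Lyz2 UMI, 8 and 7 members were still at least 1.5-fold and 2-fold lower.

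Clock genes were examined because glucocorticoid levels and several members vary over the day, and the labels give no time of collection. Of 14 clock genes 11 were above the limit, of which 2 were lower and 2 higher by 1.5-fold, with a median log2 ratio of 0.26. Of all 5933 genes 3.59% were lower and 5.07% higher by that much. The repressor Nr1d1 had 90.2 wild type and 39.9 knockout CPM (-1.18, -1.31 to -1.05), and Nr1d2 was 1.59-fold lower. Hlf had 31.6 and 53.6 CPM (0.76, 0.60 to 0.92), and Bhlhe41 was 1.52-fold higher. Their part in the members' ratios was not tested.

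Over single cells the members ranged from broadly to sparsely detected. To compare cells of unequal depth, each cell was thinned at random to 3000 UMIs, which left out 114 shallower wild type and 69 knockout cells. At that depth a Cebpd UMI was seen in 92.8% of 1419 wild type cells (exact 95% interval 91.3 to 94.1) and in 75.5% of 1366 knockout cells (73.1 to 77.7). Klf9 was seen in 89.7% and 65.2%, Tsc22d3 in 80.6% and 40.5%, Zbtb16 in 63.7% and 20.6%, and Errfi1 in 60.5% and 40.6%. Ddit4 was seen in 31.9% and 12.1% of cells, Fkbp5 in 28.8% and 9.37%, and Klf15 in 7.40% and 2.64%. The shares were nearly equal for Nr3c1, at 48.1% and 46.8%, and for Sgk1, at 28.2% and 26.9%. No cell type in these libraries is known to lack these genes, so the share that free RNA alone would give was not measured.

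The knockout cells are deeper, and without thinning their shares were still lower for most members. Tsc22d3 was seen in 93.5% of wild type and 71.7% of knockout cells, Zbtb16 in 85.6% and 50.1%, Klf15 in 21.1% and 12.1%, and Errfi1 in 82.3% and 72.4%. For Nr3c1 the unthinned shares were 77.9% and 83.1%, and for Sgk1 50.9% and 58.0%, an order opposite to that of their CPM, from which nothing is read.

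**Figure D2:**
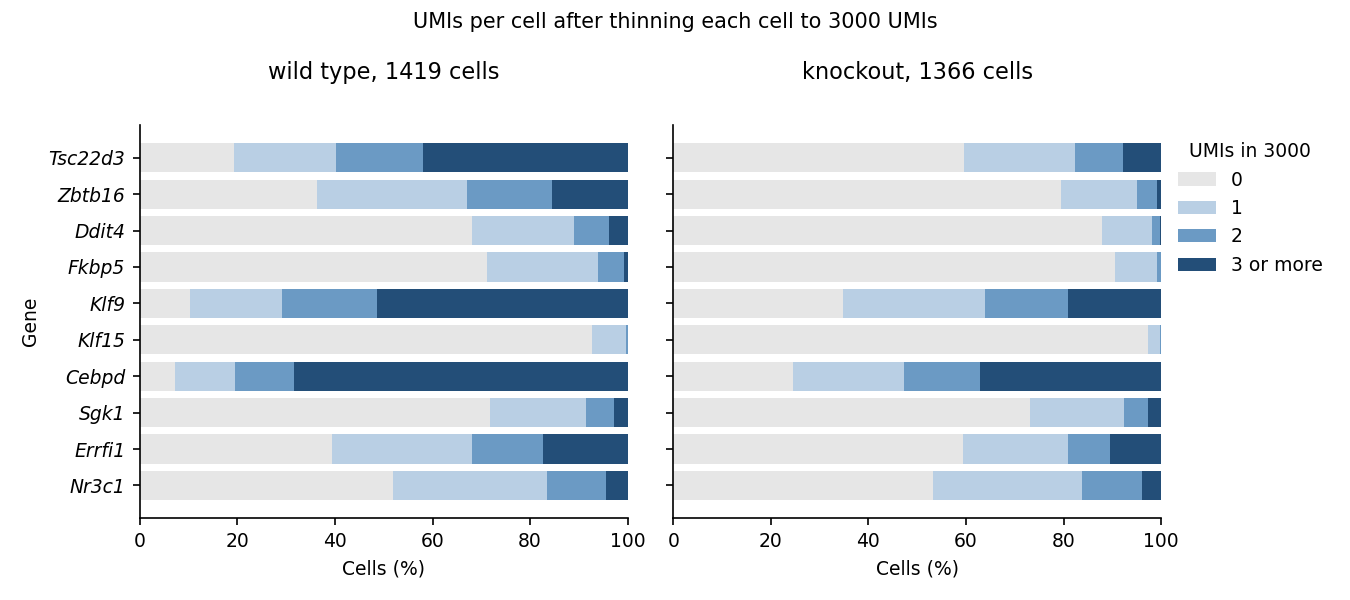
Share of cells (x axis, percent) with 0, 1, 2 and 3 or more UMIs of each gene among 3000 UMIs per cell, in the wild type (left) and knockout (right) library. For Tsc22d3, 41.9% of wild type and 7.76% of knockout cells have 3 or more UMIs, while the bars of Nr3c1 and Sgk1 look alike.

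The difference in summed UMIs ran through the whole distribution of cells. The 9 genes other than Nr3c1 gave a median of 14 UMIs per 3000 in wild type cells, with quartiles of 10 and 19. Knockout cells had a median of 6 and quartiles of 3 and 9. Cebpd, Klf9 and Tsc22d3 supplied most of these UMIs, with means of 5.85, 3.07 and 2.75 of 15.6 UMIs per wild type cell. In knockout cells their means were 2.78, 1.40 and 0.74 of 6.74 UMIs. The summed level, here and below, thus mostly follows these genes. At or above the wild type median were 53.6% of wild type and 9.74% of knockout cells. None of the 9 was seen in 2 wild type and 34 knockout cells.

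**Figure D3:**
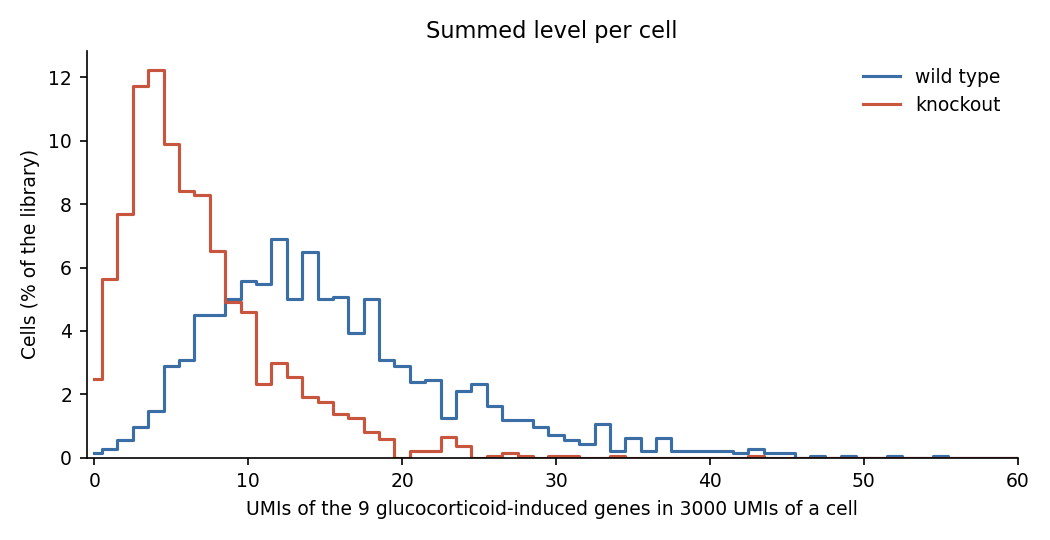
Distribution over cells (y axis, percent of the library's cells) of the summed UMIs of the 9 genes other than Nr3c1 among 3000 UMIs per cell, drawn up to 60 UMIs. The knockout curve peaks at lower values, with a median of 6 against 14 UMIs in the wild type, and the curves overlap.

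The spread over cells was measured in 2 ways. The ratio of variance to mean of the thinned UMIs is 1 where counting is the only source of spread, and its median over the 5933 genes was 1.04 for wild type and 1.05 for knockout cells. Cebpd had 6.12 and 4.11, with up to 59 UMIs in 1 wild type cell. Errfi1 had 2.68 and 3.90. Tsc22d3 had 2.73 and 2.03, and Klf9 1.84 and 1.74. Fkbp5 was near 1, with 1.08 and 1.06, and Nr3c1 had 1.24 and 1.14. This ratio grows with the mean, so it does not rank genes or libraries of different levels by unevenness. The squared coefficient of variation in excess of counting does not grow in that way, and its median over all genes was 0.20 and 0.24. By this measure Cebpd had 0.87 and 1.12, Tsc22d3 0.63 and 1.40, Klf9 0.27 and 0.53, Errfi1 1.21 and 3.19 and Sgk1 1.68 and 0.94. The first 4 of these were thus higher in knockout cells, as was Zbtb16 (0.37 and 1.10). Sgk1 was higher in wild type cells, as was Nr3c1 (0.34 and 0.21). No interval was computed for this measure, which is imprecise at low means, so small differences in it are not read. Fkbp5 (0.22 and 0.56) and Ddit4 (1.45 and 1.21), with knockout means of 0.10 and 0.14 UMIs per cell, were too scarce to order the libraries. Klf15, with means of 0.08 and 0.03 UMIs per cell, was too scarce to place. For Nr3c1, 51.9% of wild type cells were at 0 where a Poisson distribution of the same mean gives 48.9%.

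Correlations between members over the cells of a library were low. Among wild type cells 7 of the 45 pairs of members, and among knockout cells 4, had a Pearson r of at least 0.1 over cells at 3000 UMIs. Over all pairs of the 5933 genes 0.25% and 0.344% did. The pairs of genes differ in level, which itself bears on r. All 7 wild type and 3 of the 4 knockout pairs joined genes that were at least 1.5-fold lower, and the other was Tsc22d3 with Nr3c1. Since 8 of the 10 members were that much lower, most of the 45 pairs join such genes whatever their r. The median r of the member pairs was 0.03 and 0.02. These correlations are over 1419 and 1366 cells that share a library and are weakened by the low counts. The number of pairs shifted with the depth and even with the random draw of the thinning, where a new draw gave 4 and 7. Without thinning there were 11 and 13.

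A few pairs were steady. Tsc22d3 and Klf9 had the highest r in each library, 0.20 for wild type and 0.17 for knockout cells, and were at or above 0.1 in 9 of 9 settings of depth, draw and cell choice in both. Klf9 and Cebpd had 0.13 and 0.15 and passed in 8 of 9 settings in each library. Tsc22d3 and Ddit4 had 0.17 and 0.09 and passed in 9 of 9 wild type and 5 of 9 knockout settings. Zbtb16 and Klf9 passed in 2 of 9 wild type and 9 of 9 knockout settings. Tsc22d3 and Zbtb16, the members with the 2 lowest knockout to wild type ratios, had -0.06 and 0.07. Nr3c1 and Cebpd had -0.12 and 0.02. Sgk1 was under 0.1 with every other member in both libraries at this setting.

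**Figure D4:**
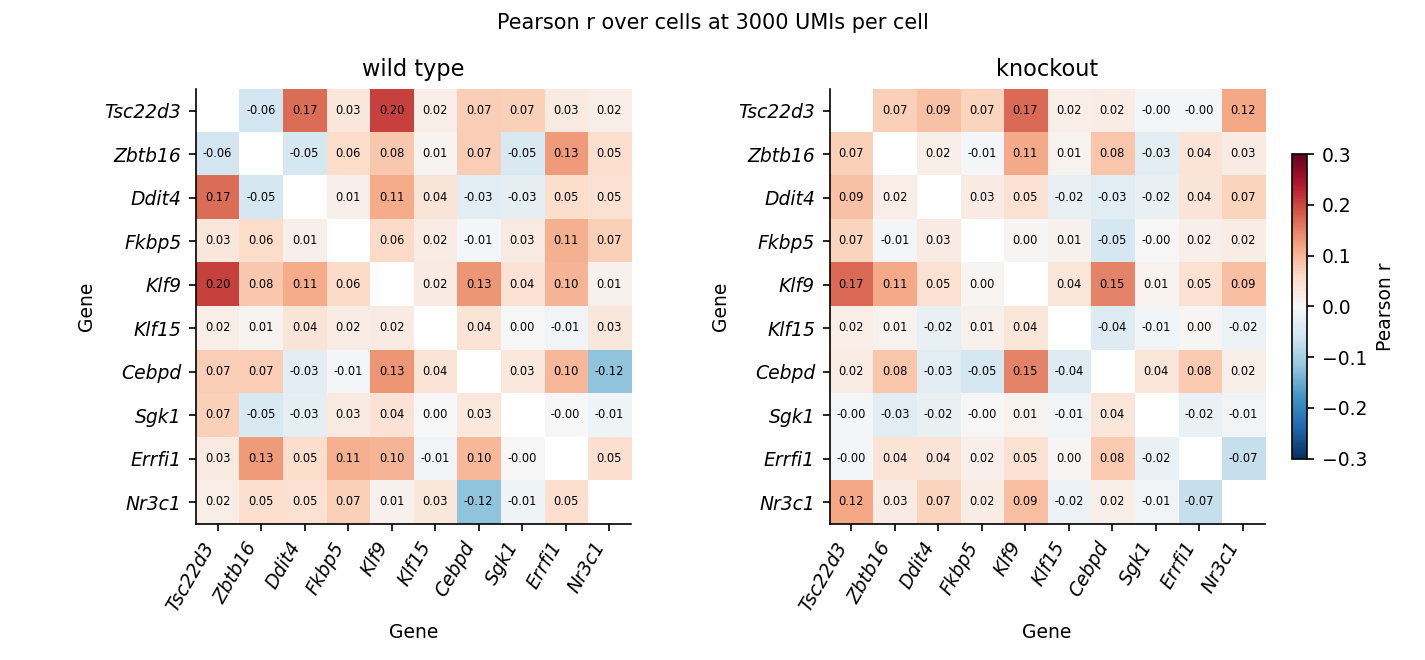
Pearson r of each pair of genes over the cells of the wild type (left, 1419 cells) and knockout (right, 1366 cells) library, from log(1 + UMIs) at 3000 UMIs per cell. Most squares are pale, and the darkest in each panel is Tsc22d3 with Klf9, at 0.20 and 0.17.

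The genes whose pattern over cells was most like the members were mainly immediate early genes. The measure was the lower of the 2 libraries' r with the mean standardised level of the 9 genes, which was at least 0.1 for 0.979% of 5924 other genes. Low counts weaken r, so this ranking favours abundant genes, such as Gsn and Dcn at 28233 and 18914 wild type CPM. Egr1 came first, with 0.31 over wild type and 0.29 over knockout cells. The next were Gsn (0.24 and 0.32), Junb (0.25 and 0.23), Dcn (0.22 and 0.25), Zfp36 (0.22 and 0.22), Fos (0.23 and 0.20), Btg2 (0.24 and 0.19), Txnip (0.23 and 0.19), Cdkn1a (0.21 and 0.19) and Jun (0.25 and 0.18). Among the members themselves, each against the other 8, Klf9 had 0.24 and 0.19 and Tsc22d3 0.17 and 0.14. Sgk1 had 0.03 and -0.01.

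Immediate early genes, which tissue dissociation also induces, were mostly lower in the knockout library too. They made up a median of 0.90% of the UMIs of a wild type cell and 0.44% of a knockout cell. Of 18 such genes 17 had a mean of at least 20 CPM, and 12 of these were at least 1.5-fold lower, beside 3.59% of all 5933 genes. The scarcer Egr2 was 1.59-fold higher in the knockout library (0.67, 0.39 to 0.96). The cells of both libraries were therefore divided at common limits of 0.37% and 1.06% immediate early UMIs. In the lowest, middle and highest tertile the 9 genes summed to 3311, 4466 and 6221 wild type CPM and to 1508, 2088 and 3226 knockout CPM. The log2 ratios of these sums were -1.13, -1.10 and -0.95. At least 1.5-fold lower were 8, 7 and 7 members, beside 3.34%, 3.56% and 3.41% of all genes in those cells.

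The members varied unequally with the immediate early share. Cebpd had 911 CPM in the lowest and 2691 CPM in the highest tertile of wild type cells, and 526 and 1576 CPM in the knockout cells. Its log2 ratio within the tertiles was -0.79, -0.72 and -0.77, smaller than the -1.06 over all cells. Ddit4 varied little with that share, with 151, 167 and 157 CPM over the wild type and 41.5, 43.1 and 44.1 CPM over the knockout tertiles. Fkbp5 had 106, 112 and 111 CPM over the wild type tertiles and 30.8, 31.7 and 46.7 CPM over the knockout tertiles. Its ratio was -1.78 (-2.01 to -1.55) in the lowest and -1.24 (-1.48 to -1.01) in the highest tertile. Zbtb16 had ratios of -2.39, -2.20 and -1.91, and Tsc22d3 of -1.82, -2.00 and -1.69. Sgk1 differed in sign between tertiles, with 0.26 (0.07 to 0.44) in the lowest, 0.21 in the middle and -0.20 (-0.34 to -0.07) in the highest tertile. Errfi1 was under 1.5-fold in the middle and highest tertiles, at -0.47 and -0.49.

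The summed level of the 9 genes was lower in deeper cells of both libraries, though not that of each member. Over common tertiles of UMIs per cell, divided at 8054 and 12837 UMIs, the 9 genes summed to 5671, 5263 and 3910 CPM in the wild type. In knockout cells they summed to 2478, 2375 and 1944 CPM. Sgk1 had 131, 139 and 142 wild type CPM and 131, 106 and 133 knockout CPM. Knockout Tsc22d3 was highest in the middle tertile, with 279, 307 and 180 CPM. The deepest tertile held 284 wild type and 705 knockout cells. Within the tertiles the log2 ratios of the sum were -1.19, -1.15 and -1.01, and 7, 8 and 7 members were at least 1.5-fold lower, beside 5.15%, 2.93% and 3.67% of all genes.

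Cells were also divided by pairs of genes known to mark FAP states, taken as present where the pair together had 2 or more UMIs in 3000. A cell could be in several of these states. Cells with Dpp4 or Pi16, genes of progenitor-type FAPs, had more Zbtb16 and less Tsc22d3 than the others in both libraries. Zbtb16 had 469 against 330 CPM over 540 and 879 wild type cells, and 103 against 70.3 CPM over 444 and 922 knockout cells. Tsc22d3 had 628 against 953 CPM and 183 against 228 CPM. Sgk1 was lower there as well, with 97.5 against 166 wild type and 92.9 against 144 knockout CPM. Between libraries the log2 ratios in these cells were -2.19 for Zbtb16 and -1.78 for Tsc22d3. At least 1.5-fold lower were 8 members in the cells with and 8 in those without these genes, beside 3.37% and 3.86% of all genes.

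Cells with Mme or Hsd11b1 had more of most members than the others in both libraries, but less Errfi1, while Zbtb16 and Fkbp5 were close. Tsc22d3 had 1091 CPM there and 764 CPM elsewhere in the wild type, and 310 and 197 CPM in the knockout library. Klf15 had 37.2 and 24.4 wild type and 18.3 and 9.12 knockout CPM. Sgk1 had 176 and 131 wild type and 156 and 122 knockout CPM. Errfi1 had 378 and 453 wild type and 244 and 279 knockout CPM. The counts of members lower were again 8 and 8, beside 4.07% and 3.8% of all genes. Among cells with at least 1 UMI of Hsd11b1 alone in the 3000 thinned UMIs, a division chosen after seeing the data, Tsc22d3 had 1051 CPM in 356 wild type cells and 275 CPM in 259 knockout cells. Without it the values were 754 and 200 CPM. The log2 ratio of Tsc22d3 was -1.94 with and -1.92 without such an Hsd11b1 UMI, with overlapping intervals of -2.04 to -1.83 and -1.98 to -1.86. Lower by 1.5-fold were 8 members in each of these groups, beside 4.37% and 3.75% of all genes. Cells with an Nr3c1 UMI among their 3000 thinned UMIs had 862 wild type and 245 knockout CPM of Tsc22d3, and the others 789 and 188 CPM. This divides cells by level and not by presence, since the others still had 142 and 153 CPM of Nr3c1 over all their UMIs. There 8 and 7 members were lower, beside 3.72% and 3.92% of all genes.

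The summed level was low in cells with Cthrc1 or Postn. Cells with Cthrc1 or Postn, which mark activated FAPs, had 2758 CPM of the 9 genes in 90 wild type and 1663 CPM in 473 knockout cells. The other cells had 5107 and 2358 CPM. Cells with this pair were on average deeper than the others in both libraries, and the summed level was lower in deeper cells. Depth and state were not separated here. In the cells with these genes 6 members were at least 1.5-fold lower, beside 4.09% of all genes, with a median log2 ratio of -0.71. Cebpd had a ratio of -0.46 in these cells and Klf9 of -0.76. Such cells made up 6.34% of the thinned wild type and 34.6% of the thinned knockout cells. Without them 8 members were at least 1.5-fold and 6 at least 2-fold lower, beside 2.7% of all genes at 1.5-fold. Cells with Cxcl9 or Cxcl10 had 1641 CPM of the 9 genes in the knockout library (111 cells) and were too few in the wild type (9 cells) to compare. Zbtb16 had 43.1 CPM in them and 84.6 CPM in the other knockout cells. Without such cells 8 members were lower, beside 3.29% of all genes.

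Other pairs of genes divided the cells as well. With and without Cpxm1 or C1qtnf3, 8 and 7 members were at least 1.5-fold lower, beside 5.02% and 2.94% of all genes. The 9 genes summed to 4707 and 4888 wild type CPM and to 1940 and 2149 knockout CPM with and without this pair. For Gdf10 or Fmo2 the counts were 8 and 8, beside 5.46% and 3.74%. For Stmn4 or Inmt they were 8 and 7, beside 4.76% and 3.55%. Cells with Stmn4 or Inmt had the highest Zbtb16 of all the divisions in both libraries, with 503 CPM in 407 wild type and 168 CPM in 67 knockout cells. The kinase gene Sgk1 was highest in cells with Cpxm1 or C1qtnf3, with 214 CPM in 96 wild type and 169 CPM in 451 knockout cells.

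Across all 23 divisions with at least 25 cells of each library, which overlap, Tsc22d3, Zbtb16, Ddit4, Fkbp5, Klf9 and Klf15 were at least 1.5-fold lower in each. For Klf15 some divisions held few UMIs, and its interval included equal levels with Cthrc1 or Postn (-1.46 to 0.21, 17 wild type UMIs) and with Stmn4 or Inmt (-1.63 to 0.10, 14 knockout UMIs). Zbtb16 ranged from -2.39 to -1.58, Tsc22d3 from -2.07 to -1.41 and Fkbp5 from -1.82 to -1.24. Ddit4 ranged from -2.09 to -0.62, the latter in the 146 wild type and 68 knockout cells with Gdf10 or Fmo2. Cebpd was at least 1.5-fold lower in 22 of 23 and Errfi1 in 14 of 23. Nr3c1 ranged from -0.12 to 0.36 and was not 1.5-fold apart in any of the 23, of which 2 were divided by its own UMIs. Sgk1 ranged from -1.04 to 0.26 and was 1.5-fold lower only in the cells with Gdf10 or Fmo2.

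**Figure D5:**
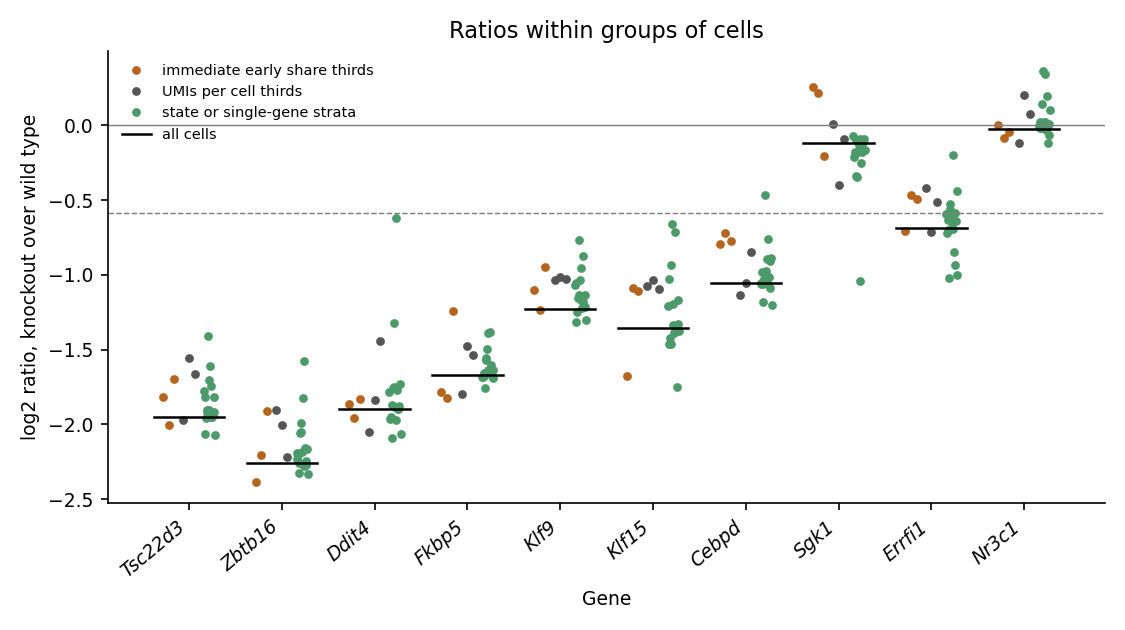
Log2 ratio of knockout over wild type (y axis) of each gene within 23 overlapping groups of cells: tertiles of the immediate early share (brown), tertiles of UMIs per cell (grey), and state or single-gene groups (green). Black bars are the values over all cells and the dashed line is 1.5-fold lower; the points of Tsc22d3, Zbtb16, Ddit4, Fkbp5, Klf9 and Klf15 all lie below that line.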

How the data were processed

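The authors deposited 1 matrix of raw UMI counts per group. The submitters' processing notes list Cell Ranger 3.0.0, Seurat and mm10 without their roles, and per the file headers the software version was 3.0.2. The sources used here do not say how barcodes were called as cells. From these counts UMIs were summed per gene and library over the cells kept and divided by the library's sum (CPM). Ratios have exact conditional binomial, UMI sums exact Poisson and shares exact Clopper-Pearson 95% intervals, which cover counting error only. A count of 0 allows 3 counts, or 0.208 wild type and 0.156 knockout CPM. Each 3′ UMI counts a molecule once, so levels were not divided by gene length.

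Doublets were gated out in the sort by pulse width, per the labels' protocols, and were not removed here. Scrublet, run in scanpy 1.11.5, marked 2 barcodes of the wild type and 1 of the knockout, left out in an alternative. Thinning drew 3000 UMIs per cell without replacement. Ratio and correlation calculations were tested on simulated data. Gene positions are from GENCODE M21 (mm10), matched by gene identifier.

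The members and lists were chosen with earlier results of these data known. Besides the members, the text names up to 6 genes per list by size among those at least 1.5-fold apart, Hsd11b1, Hsd11b2, Nr3c2, Per1 and Dusp1 in any case, and the 10 genes most like the members. Mt2, Gpx3, Irs2 and Egr2 were added after their values were seen. Promoter sequences of 3 members were not used here.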

Additional observations from a re-analysis of the deposited data

How the results depend on the processing

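The counts of 8 members at least 1.5-fold and 7 at least 2-fold lower were the same under 12 alternatives of cell filter, doublet removal, scaling and weighting of cells. The median log2 ratio of the members lay between -1.34 and -1.18. No member changed direction where it was at least 1.5-fold apart, and of 120 single-gene values 105 stayed within the counting interval of the reported one. Nr3c1 ranged from -0.07 to 0.05. The number of member pairs with r of at least 0.1 depended on depth. In the wild type library the 7 pairs became 3 at 2000 UMIs per cell, 11 at 5000 UMIs, 11 without thinning and 4 with another random draw. In the knockout library the 4 pairs became 9 at 5000 UMIs, 13 without thinning, 8 with at least 2 Pdgfra UMIs and 7 with another random draw. The draw, the removal of shared barcodes and that of cells with Cxcl9 or Lyz2 were chosen after seeing the data. No paired analysis was possible because each group is 1 pooled matrix with no map from cells to samples, and for the same reason no sample could be left out.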

Other observations

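Barcodes with a Pdgfra UMI that were left out for more than 10% mitochondrial UMIs had a distinct pattern of the members. They numbered 126 for the wild type and 73 for the knockout. Their Zbtb16 levels were 78.2 and 20.4 CPM, beside 387 and 80.9 CPM in the cells used. Klf9 had 356 and 153 CPM and Nr3c1 78.2 and 65.5 CPM, all below the cells used. Cebpd was not lower there, with 2169 wild type and 1222 knockout CPM, and Sgk1 had 115 and 116 CPM. These barcodes were deep, with medians of 15313 and 23042 UMIs.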
